A study of Homo sapiens with 10 samples.

Results

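The 36 genes described here encode subunits of the proteasome and its activators, with POMP, a chaperone of its assembly. They were chosen by name, with earlier results of these data known. Symbols were matched to the Ensembl identifiers of the expression tables and of the m6A peak lists. Each of the 36 symbols matched 1 of the 58037 gene identifiers, and all 36 were among the 16406 genes that passed the filter on low counts. The cells were A549, a human lung adenocarcinoma line, and A549/DDP, a line derived from it that is resistant to cisplatin (DDP). Both lines were grown in the same medium with serum, neither is labelled as treated with cisplatin at harvest, and each is 1 cell line, so resistance and any other difference between the lines cannot be told apart. Each line had 2 input RNA-seq libraries and 2 m6A-seq libraries, in which RNA fragments carrying N6-methyladenosine (m6A) are pulled down with an antibody and the regions richer in reads than the input are listed as peaks. The labels do not say whether the 2 replicates came from separate cultures, so a p-value measures only the spread between these libraries.

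The proteasome degrades proteins that carry ubiquitin chains. Its barrel-shaped core is built of outer alpha rings, which gate the entry, and inner beta rings, which hold the proteolytic sites. The regulatory particle caps the core. The base of this cap has a ring of ATPases that unfold substrates, with scaffold and ubiquitin-binding subunits, and its lid holds PSMD14, the enzyme that removes ubiquitin. Other caps, the activators PSME1 to PSME4, bind the same core. Subunits of 1 complex are known to be kept in proportion, and the transcription factors NFE2L1 and NFE2L2 are known to act on many of these genes through antioxidant response elements.

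The input libraries held 29225501 to 35286514 expected counts. The 36 genes together took 141510 to 175943 of these, and their lowest mean level was 27 CPM (library-scaled counts, with no correction for length). Of 6 epithelial markers, 3 passed the test described below as higher in A549/DDP and 1 as lower. KRT8 and KRT18 were at 1437.3 CPM or more in every library and higher in A549/DDP (KRT8 from 1452.0 and 3093.8 to 6861.8 and 6648.1 CPM), and so was CDH1 (33.6 and 83.4 against 311.5 and 248.6 CPM). KRT7 was lower (4948.8 and 2998.5 against 1299.5 and 1213.2 CPM). The other two did not pass: KRT19 was at 29.4 and 41.1 CPM against 7.19 and 0 CPM, so that it had no count in A549/DDP replicate 2, and EPCAM was low in both lines at 1.91 to 5.67 CPM. Of 9 markers of leukocytes, endothelium and fibroblasts, 1 to 6 were at 0 in each library, and CD3E was at 0 in all 4. Their summed level was 5.43 and 9.35 TPM in A549 and 3.02 and 21 TPM in A549/DDP. The fibroblast markers were not absent. COL1A1 was at 7.11 and 12.1 CPM in A549 and 17.7 and 7.88 CPM in A549/DDP. COL1A2 and DCN were highest in A549/DDP replicate 1, at 6.65 and 2.16 CPM. These 3 were the only ones of the 9 tested, and 0 passed. A second pair of A549 inputs, with 855034 and 982036 counts of which 75.2% and 73.9% were mitochondrial, entered only as an alternative.

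Single proteasome subunits differed between the lines in both directions, while the median of the 36 genes was near 0. The summed level was 6720.1 and 6358.4 TPM (a share of all transcripts, scaled for their length) in the A549 libraries and 6289.8 and 6004.7 TPM in the A549/DDP libraries, or 0.6% to 0.672% of all transcripts. In TPM, both A549/DDP sums lay under both A549 sums. As a share of expected counts the lines overlapped, with 175943 of 35286514 and 160630 of 34570074 in A549. In A549/DDP they were 141510 of 29225501 and 163094 of 33971561. The alpha and beta ring genes summed to 1953.5 and 1912.6 TPM in A549 and 2211.8 and 1922.3 TPM in A549/DDP. The cap genes summed to 4145.8 and 3888.4 against 3559.2 and 3562.2 TPM, where PSMC1 went from a mean of 665.3 to 346.7 TPM. The median log2 fold change of A549/DDP over A549 was 0.02 for the 36 genes, with 18 above 0 and 18 below, and -0.00 for all genes tested. By the quasi-likelihood test of edgeR, with p-values adjusted by Benjamini-Hochberg over all genes, PSMB5 and PSMD4 rose and PSMD12 and PSMD14 fell at an adjusted p under 0.05, and 32 did not pass. In bulk RNA, less RNA in every cell and fewer cells with the RNA cannot be told apart. The 2 of 36 that rose stand beside 6.85% of all tested genes, and the 2 that fell beside 8.00%. At an unadjusted p under 0.05, 7 were higher and 9 lower, beside 14.7% and 18.0% of all tested genes. The counts moved with the test. DESeq2 called 6 higher and 7 lower, beside 11.7% and 12.9% of the genes to which it gave an adjusted p, and limma on log2(TPM + 1) called 0 higher and 2 lower, beside 4.32% and 5.37%. As a share of the 36 the calls were thus under the background in this edgeR fit and above it in DESeq2. The position also moved with the filter. With no filter beyond 1 count, edgeR called 6 higher and 6 lower, beside 8.06% and 9.54%, which is above the background. Leaving out A549 replicate 1 gave 5 higher and 4 lower (8.71% and 8.54% of all tested genes), and leaving out A549 replicate 2 gave 5 and 9 (9.39% and 11.3%). Leaving out A549/DDP replicate 1 gave 0 and 0 (4.29% and 6.88%), and leaving out A549/DDP replicate 2 gave 1 and 1 (4.92% and 6.21%).

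Without a threshold, both A549/DDP libraries lay above both A549 libraries in 10 of the 36 genes, and under them in 12. Over all tested genes these shares were 29.7% and 32.7%. The median size of the difference between lines was 0.38 on the log2 scale for the 36 genes and 0.68 for all tested genes. The median size of the difference between replicates of the 36 genes was 0.34 in A549 and 0.21 in A549/DDP. For all tested genes, which were not matched to the 36 for level, it was 0.40 and 0.37. In A549 the replicate difference had a direction, with replicate 1 above replicate 2 by a median of 0.27 for the 36 genes and 0.03 for all tested genes.

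**Figure D1:**
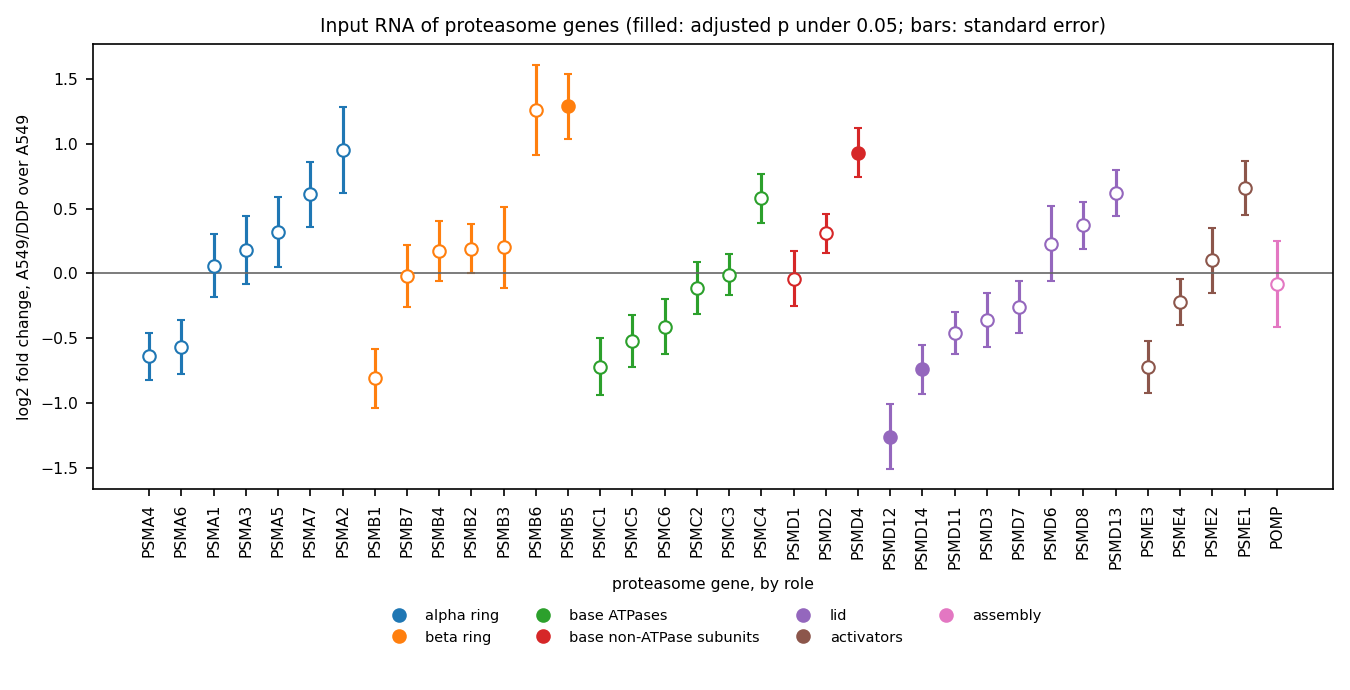
Log2 fold change of A549/DDP over A549 (y axis) for each of the 36 proteasome genes (x axis), coloured by role, with bars of 1 standard error and filled points for an adjusted p under 0.05. Values run from -1.26 (PSMD12) to 1.29 (PSMB5), and most roles hold points on both sides of 0.

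Among the proteolytic subunits of the beta ring, PSMB5, which carries the chymotrypsin-like site, was at 33.4 and 44.5 CPM in A549 and at 107 and 83.9 CPM in A549/DDP. Both A549/DDP libraries lay above both A549 libraries. The log2 fold change was 1.29 (SE 0.25, edgeR adjusted p = 0.0221), from 38.9 ± 7.84 to 95.4 ± 16.3 CPM (SD, n = 2 libraries a line). PSMB6, which carries the caspase-like site, was at 24.7 and 48.3 CPM against 95 and 79.8 CPM. The groups did not overlap, the log2 difference was 1.26 (SE 0.35), and the edgeR adjusted p of 0.0614 missed the threshold. A549 replicate 1 was the lowest library for both genes. PSMB7, which carries the trypsin-like site, was at 149.2 and 97.8 CPM against 127.7 and 115.3 CPM, with overlapping groups (log2 difference -0.02, SE 0.24, edgeR adjusted p = 0.966).

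The other 4 beta subunits have no proteolytic site. PSMB1 was the lowest of the ring in fold change, at 112.5 and 83 CPM in A549 and 60.9 and 50.5 CPM in A549/DDP (log2 difference -0.81, SE 0.23, edgeR adjusted p = 0.0677). Its groups did not overlap. PSMB2, PSMB3 and PSMB4 had log2 differences of 0.17 to 0.2, with overlapping libraries. Thus 1 of the 7 beta ring genes rose and 0 fell at the threshold in edgeR, while 2 were higher and 1 lower both at an unadjusted p under 0.05 and by DESeq2. PSMB6 and PSMB1 passed in DESeq2, with adjusted p of 0.00412 and 0.0188. These counts, and those of the roles and assembly factors below, stand beside the shares over all tested genes. Higher and lower, these were 6.85% and 8.00% by edgeR, 14.7% and 18.0% unadjusted, and 11.7% and 12.9% by DESeq2.

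The 7 alpha ring genes gave 0 calls by edgeR, with 1 higher and 2 lower at an unadjusted p under 0.05 and 0 higher and 1 lower by DESeq2. Their log2 differences ran from -0.64 to 0.95. PSMA2 had the largest, at 20.5 and 30.7 CPM in A549 and 39.7 and 59.1 CPM in A549/DDP (0.95, SE 0.33, edgeR adjusted p = 0.108). PSMA4 had the lowest, at 197.3 and 161.4 CPM against 110.4 and 119.3 CPM (-0.64, SE 0.18, edgeR adjusted p = 0.0658). In both genes the lines did not overlap, in opposite directions. They were picked as the extremes of the ring, and the lines did not overlap either in 29.7% (higher) and 32.7% (lower) of all tested genes.

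The 6 ATPases of the base also gave 0 calls by edgeR, with 1 higher and 2 lower at an unadjusted p under 0.05 and 1 higher and 1 lower by DESeq2. A log2 difference under 0 was found in 5 of them. PSMC1 was at 400.5 and 269.7 CPM in A549 and 200 and 205.8 CPM in A549/DDP (-0.72, SE 0.22, edgeR adjusted p = 0.0807). PSMC4 was the exception, at 291.9 and 221.1 CPM against 395 and 370.7 CPM (0.58, SE 0.19, edgeR adjusted p = 0.0937). The groups of both genes were apart. Counts on pseudogenes of these families were small, and PSMC1P1 held 25 to 224 counts against 5929 to 13177 on PSMC1; how reads common to a gene and its copies were divided was not tested.

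Of the 3 non-ATPase genes of the base, PSMD4 rose. PSMD4, a ubiquitin receptor of the cap, was at 80.6 and 86.5 CPM in A549 and 177.8 and 141 CPM in A549/DDP. All A549/DDP values exceeded the A549 values, with a log2 fold change of 0.93 (SE 0.19, edgeR adjusted p = 0.0284). PSMD2, a scaffold that also binds ubiquitin shuttles, was higher by 0.31 (SE 0.15) with an edgeR adjusted p of 0.217. PSMD1, the other large scaffold, was at 165.6 and 237.5 CPM against 198.8 and 193.4 CPM, so the A549 libraries bracketed the A549/DDP ones (-0.04, SE 0.21, edgeR adjusted p = 0.935).

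The lid held both genes that fell. PSMD12, a scaffold subunit, was at 160.9 and 117.8 CPM in A549 and 50.2 and 66.1 CPM in A549/DDP. Both A549/DDP values lay far under the A549 values, and the gene fell by 1.26 on the log2 scale (SE 0.25, edgeR adjusted p = 0.0237). PSMD14, the deubiquitinating enzyme of the cap, was at 188.6 and 151.1 CPM against 104.6 and 98.8 CPM. It fell by 0.74 (SE 0.19), with an edgeR adjusted p of 0.0488 that is close to the threshold. Of the other 6 lid genes 0 passed in edgeR, while 1 was higher and 1 lower both at an unadjusted p under 0.05 and by DESeq2. PSMD13 was the highest in fold change, at 78.4 and 83.6 CPM in A549 and 117.4 and 132.3 CPM in A549/DDP (0.62, SE 0.18, edgeR adjusted p = 0.0678). PSMD12 was past the threshold in each of 9 alternative fits with the same 4 libraries, and PSMB5, PSMD4 and PSMD14 in 6 of 9, where the 3 limma fits missed it. Leaving out A549/DDP replicate 1 took all 4 over an adjusted p of 0.05 (0.0753 for PSMB5, 0.165 for PSMD4, 0.0831 for PSMD12 and 0.162 for PSMD14, by edgeR). Leaving out A549/DDP replicate 2 did so for PSMD4 (0.0505) and PSMD14 (0.219).

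The 4 activators gave 0 calls by edgeR, with 1 higher and 1 lower both at an unadjusted p under 0.05 and by DESeq2. PSME1, which with PSME2 forms the interferon-inducible cap, was at 49.8 and 49.2 CPM in A549 and 70.4 and 86.5 CPM in A549/DDP (0.66, SE 0.21, edgeR adjusted p = 0.0853), while PSME2 was at 47 and 39.1 CPM against 51.3 and 40.8 CPM (0.10, SE 0.25, edgeR adjusted p = 0.848). PSME3, which forms the nuclear activator, was at 433.3 and 316.4 CPM against 237.7 and 216.6 CPM (-0.72, SE 0.20, edgeR adjusted p = 0.063). PSME4, a large single-chain activator, differed by -0.22 (SE 0.18). POMP was at 31.6 and 23.7 CPM in A549 and 21.6 and 30.9 CPM in A549/DDP, with overlapping groups.

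Levels of different genes were compared per length, in TPM. PSMC1, PSMD2 and PSMC3 had the highest means over the 4 libraries, at 506, 434.7 and 386.1 TPM. POMP, PSME4 and PSMA2 had the lowest, at 34.3, 42.5 and 44.9 TPM. PSMC1 was the top gene in both A549 libraries (772.5 and 558 TPM), and in A549/DDP it was at 342.9 and 350.5 TPM, with PSMD2 (519.6 TPM) and PSMC4 (450.4 TPM) on top in replicates 1 and 2. The median of the 36 genes was 120.7 to 147.5 TPM per library, against 12.3 to 14.5 TPM for all genes tested. Ranked by TPM, the 36 genes gave a Spearman's rho of 0.935 between the A549 replicates, 0.915 between the A549/DDP replicates and 0.685 to 0.817 between lines, as a description over 36 genes that share libraries. For PSMD11 and PSMA5 the effective length estimated by the authors' program varied 1.91-fold and 1.9-fold among libraries, so their differences depend on whether CPM or TPM is read.

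**Figure D2:**
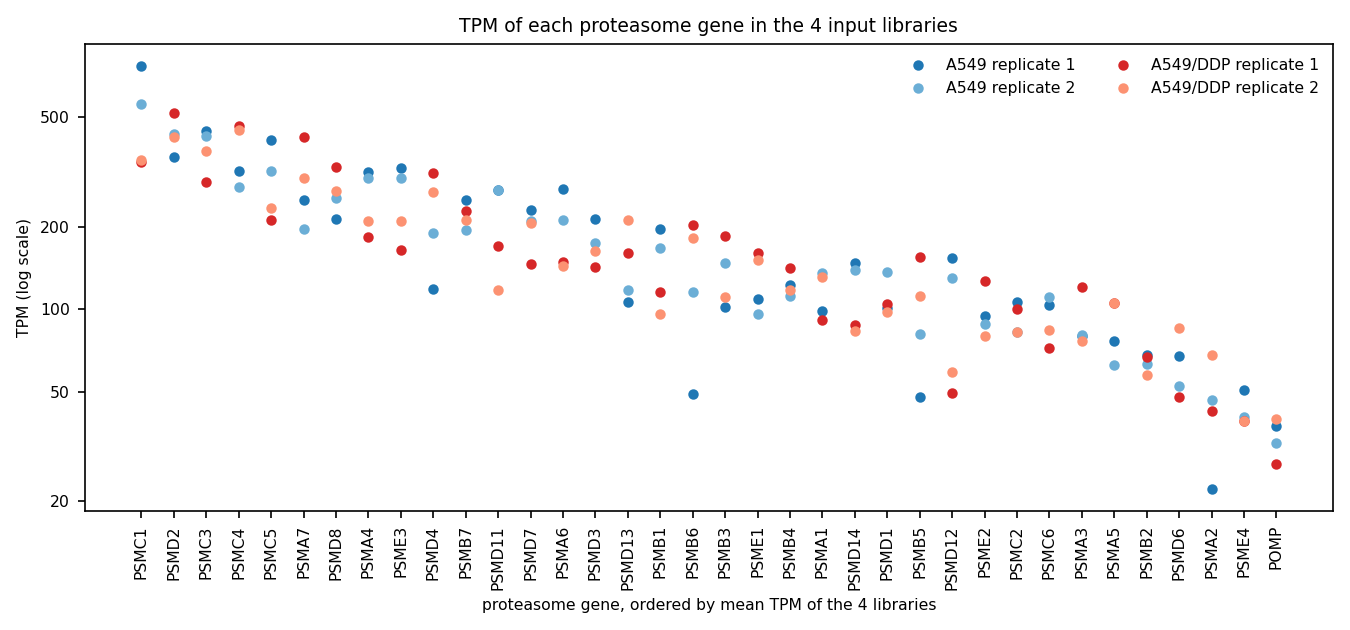
TPM (y axis, log scale) of each of the 36 proteasome genes (x axis, ordered by mean) in the 2 A549 and 2 A549/DDP input libraries, 1 point per library. PSMC1 is highest at 342.9 to 772.5 TPM, and the lines are apart for genes such as PSMB5 and PSMD12.

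Promoter sequences show where the known elements of this pathway lie in front of these genes. RefSeq promoter windows (GRCh38.p14, 250 bases before to 50 after a start site) were matched for 31 of the 36 genes, not for PSMA7, PSMB1, PSMB6, PSMB7 and PSMD4. The core of the antioxidant response element, TGACNNNGC on either strand, was in the windows of 10 of the 31 genes, or 32.3%. It was in 16.1% of 27305 gene symbols with a window and in 13.3% of 35116 windows. Among 8 of the 10 genes, so 8 of the 31, a match lay upstream of the start, beside 13.2% of all symbols. These 8 are shown on the strand of the motif, with the core in capitals and up to 10 bases on either side.
PSMA4, chr15:78540650-78540678, + strand: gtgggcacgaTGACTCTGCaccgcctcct
PSMB3, chr17:38752627-38752655, + strand: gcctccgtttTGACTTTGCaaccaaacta
PSMC5, chr17:63827654-63827682, - strand: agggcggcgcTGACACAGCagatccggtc
PSMD3, chr17:39980760-39980788, + strand: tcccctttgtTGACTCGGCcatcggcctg
PSMD12, chr17:67366724-67366752, - strand: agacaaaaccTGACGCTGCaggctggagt
PSME1, chr14:24136098-24136126, + strand: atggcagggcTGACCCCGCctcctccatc
PSME2, chr14:24146767-24146795, - strand: ccctggactgTGACCCAGCcagcaccgcc
PSME4, chr2:53971009-53971037, + strand: gctctgctggTGACGCTGCagccgccggg
The median log2 difference of A549/DDP over A549 was -0.13 for the 10 genes with the core (from -1.26 to 0.66) and 0.06 for the 21 without it (from -0.74 to 1.29). These ranges overlap, and a match of letters does not show that a factor binds.

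The 3 called genes with a RefSeq window are shown with the 250 bases upstream of a start site, since they moved in opposite directions. Capitals mark the antioxidant core and CCAAT, read on both strands, where overlapping matches form 1 run of capitals. CCAAT, the binding element of NF-Y, was in the windows of 16 of the 31 genes, or 51.6%, against 39.7% of all symbols. PSMB5 has a second RefSeq start, whose upstream bases hold neither motif.
PSMB5, chr14:23035221-23035470, - strand: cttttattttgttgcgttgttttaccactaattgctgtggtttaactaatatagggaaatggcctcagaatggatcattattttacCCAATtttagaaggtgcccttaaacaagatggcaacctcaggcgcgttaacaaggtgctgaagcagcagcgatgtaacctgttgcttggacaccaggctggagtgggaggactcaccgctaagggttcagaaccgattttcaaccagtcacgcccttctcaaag
PSMD12, chr17:67366578-67366827, - strand: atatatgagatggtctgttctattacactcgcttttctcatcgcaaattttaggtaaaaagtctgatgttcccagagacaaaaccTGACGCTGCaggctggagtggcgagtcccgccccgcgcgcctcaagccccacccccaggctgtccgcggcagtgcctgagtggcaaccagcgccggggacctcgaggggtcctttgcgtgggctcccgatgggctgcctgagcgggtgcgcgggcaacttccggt
PSMD14, chr2:161308175-161308424, + strand: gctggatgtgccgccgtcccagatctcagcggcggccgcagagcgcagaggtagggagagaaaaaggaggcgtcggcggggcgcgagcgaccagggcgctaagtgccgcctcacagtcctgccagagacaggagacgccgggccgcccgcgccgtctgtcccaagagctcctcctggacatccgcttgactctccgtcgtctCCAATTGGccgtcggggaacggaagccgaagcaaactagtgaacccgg
PSMB5 lies on chromosome 14 from 23025851 to 23035220, PSMD12 on chromosome 17 from 67337916 to 67366577, and PSMD14 on chromosome 2 from 161308425 to 161411717. PSMD12, which fell, has the antioxidant core 165 bases before its start. PSMB5, which rose, and PSMD14, which fell, have CCAAT at 164 and at 48 and 45 bases before theirs. The fourth called gene, PSMD4, lies on chromosome 1 from 151254734 to 151267479. The 36 genes lie on 14 chromosomes, with 7 on chromosome 14 and 7 on chromosome 17, and no 2 of the 4 called genes share a chromosome.

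The immunoproteasome subunits replace the proteolytic beta subunits in immune cells and after interferon, and 2 of the 3 were at 9 counts or fewer in both A549/DDP libraries. PSMB8, the counterpart of PSMB5, had 483 and 440 expected counts in A549 and 9 and 0 in A549/DDP. PSMB9, the counterpart of PSMB6, had 170 and 308 against 4 and 0. PSMB8 was thus at 14.7 and 12.4 CPM against 0.304 and 0 CPM and fell by 6.49 on the log2 scale (SE 1.45, edgeR adjusted p = 0.0352). PSMB9 was at 5.17 and 8.69 CPM against 0.135 and 0 CPM (-6.64, SE 1.71), and its edgeR adjusted p of 0.0513 missed the threshold. Both fitted values depend on the prior count, since 1 A549/DDP library holds no count of either gene, which allows up to 3 counts there. Without A549/DDP replicate 1, which held the counts, the fitted values were -11.87 for PSMB8 and -10.90 for PSMB9, and by limma on log2(FPKM + 1) they were -3.57 and -3.31. PSMB8 passed in each of 8 alternative fits with the same 4 libraries and PSMB9 in 6 of 8. Without A549 replicate 2 the edgeR adjusted p of PSMB9 was 0.149.

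PSMB10, the counterpart of PSMB7, stayed between 3.84 and 6.65 CPM in the 4 libraries and its groups overlapped (0.31, SE 0.74, edgeR adjusted p = 0.84). In TPM, PSMB8 made up 29.4% and 19.4% of PSMB5 plus PSMB8 in A549 and 0.303% and 0% in A549/DDP. PSMB9 made up 18.5% and 15.9% of PSMB6 plus PSMB9 in A549 and 0.152% and 0% in A549/DDP. The share of PSMB10 in PSMB7 plus PSMB10 was 5.57% to 7.47% in the 4 libraries. The 2 tissue-restricted subunits of the list, PSMB11 of the thymus and PSMA8 of the testis, had 0 counts in all 4 libraries. The 2 cap subunits of the list, ADRM1, a ubiquitin receptor, and SEM1, differed by -0.28 and -0.24 with edgeR adjusted p of 0.333 and 0.594.

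**Figure D3:**
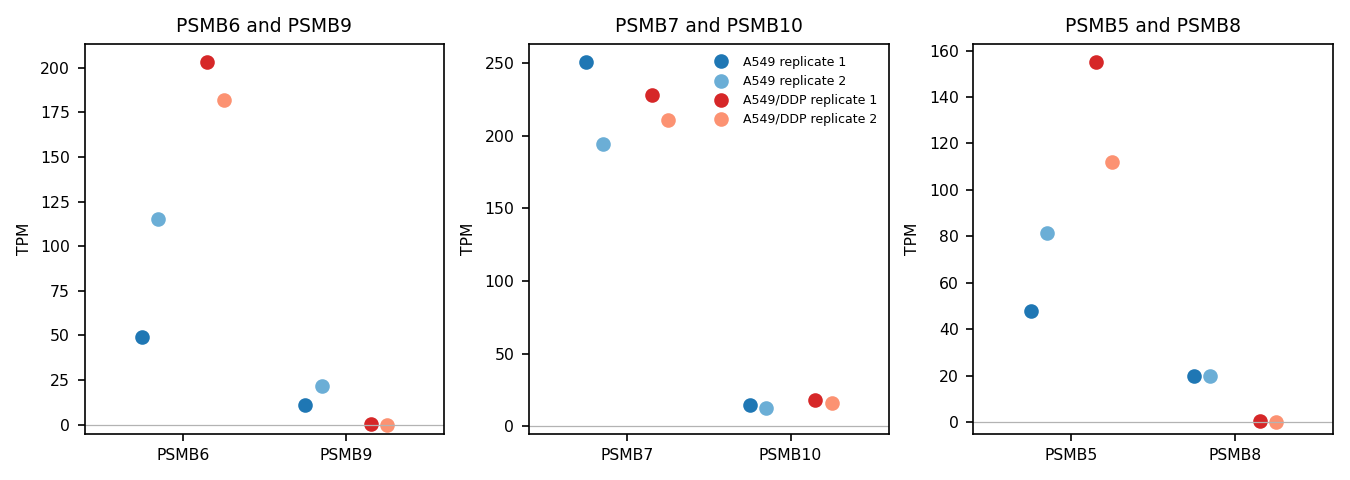
TPM (y axis, starting just under 0) of the 3 constitutive proteolytic subunits and their immunoproteasome counterparts, 1 point per input library (blue A549, red A549/DDP). PSMB8 and PSMB9 lie between 11.2 and 21.8 TPM in A549 and under 1 TPM in A549/DDP, where PSMB5 and PSMB6 are higher, and PSMB10 lies between 12.7 and 18.4 TPM in all 4 libraries.

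The other pathway genes were grouped in 5 lists, and of 44 genes 42 were tested, 2 rose and 6 fell, beside 6.85% and 8.00% of all tested genes. The median log2 difference of the 42 was -0.28, and -0.00 for all genes tested. The lists were chosen with earlier results of these data known, so these counts and medians only describe the genes listed. Among 8 assembly factors 0 passed in edgeR, with 0 higher and 1 lower both at an unadjusted p under 0.05 and by DESeq2, and PSMG2, a chaperone of the alpha ring, had the largest difference, from 17.2 and 12.2 CPM to 10.5 and 5.1 CPM (-0.92, SE 0.53, edgeR adjusted p = 0.301). Among 9 associated enzymes and regulators 2 fell and 0 rose. AKIRIN2, which brings proteasomes into the nucleus, was at 65.4 and 58.6 CPM in A549 and 16.4 and 21.6 CPM in A549/DDP, and fell by 1.71 (SE 0.26, edgeR adjusted p = 0.0119). ECPAS, an adaptor that binds the proteasome, was at 251.3 and 263.9 CPM against 151 and 160.3 CPM, and fell by 0.73 (SE 0.16, edgeR adjusted p = 0.0318). In both genes the lines did not overlap. ECPAS lost the call without A549/DDP replicate 1 or 2 (edgeR adjusted p of 0.19 and 0.155).

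Among 9 upstream factors, 3 fell and 1 rose, beside the same 8.00% and 6.85%. NFE2L2 was at 235.1 and 205.6 CPM in A549 and at 95.4 and 105.9 CPM in A549/DDP, and fell by 1.13 (SE 0.17, edgeR adjusted p = 0.0122). NFE2L1, the factor best known to raise proteasome genes when the proteasome is inhibited, was at 614.1 and 829.8 CPM against 467.4 and 464.1 CPM (-0.63, SE 0.19), and its edgeR adjusted p of 0.0758 missed the threshold. Both factors act as dimers with small MAF proteins. Of the small MAF genes, MAFF went from 178.9 and 104.9 CPM to 1.96 and 2.47 CPM and fell by 6.0 (SE 0.38, edgeR adjusted p = 0.00168). MAFK was at 570.3 and 601 CPM against 373.7 and 362.6 CPM and fell by 0.67 (SE 0.15, edgeR adjusted p = 0.0324). Without A549/DDP replicate 1 the edgeR adjusted p was 0.171 for MAFK and 0.0677 for NFE2L2, and without replicate 2 it was 0.211 for MAFK. MAFG, the other small MAF, was at 153 and 123 CPM against 87.6 and 121.1 CPM, where A549/DDP replicate 2 came close to A549 replicate 2 (edgeR adjusted p = 0.292). The gene that rose was VCP, the ATPase that draws proteins out of membranes and complexes and takes part in the processing of NFE2L1. It was at 442.8 and 490.9 CPM in A549 and 1217.1 and 1098.1 CPM in A549/DDP, a log2 fold change of 1.31 (SE 0.15, edgeR adjusted p = 0.0062).

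Among 11 genes of ubiquitin and of shuttle factors, UBA1, the main enzyme that activates ubiquitin, rose from 226.9 and 274 CPM to 568.8 and 623.2 CPM (1.25, SE 0.17, edgeR adjusted p = 0.00911). The other 10 did not pass.

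**Figure D4:**
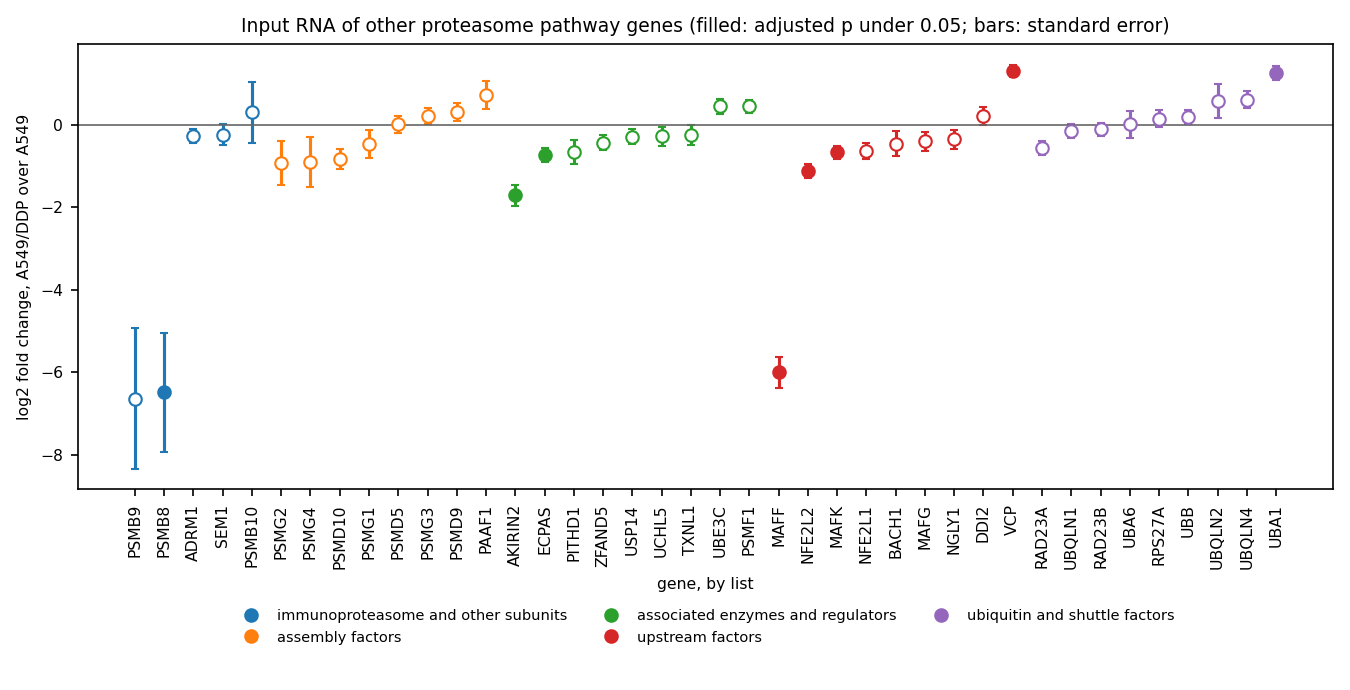
Log2 fold change of A549/DDP over A549 (y axis) for 40 of the 42 tested pathway genes (x axis), coloured by list, with bars of 1 standard error and filled points for an adjusted p under 0.05. PSMB9, PSMB8 and MAFF lie between -6.64 and -6.0, and the highest point is VCP at 1.31.

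In the m6A peak lists, 27 of the 36 genes had a called peak in at least 1 of the 4 libraries. The other 9 (PSMA4, PSMA5, PSMA6, PSMB6, PSMC3, PSMC4, PSMC6, PSMD2 and PSMD13) had none, or 25.0% of the members beside 42.9% of the 16389 tested genes. These 16389 are the tested genes after copies on X and Y were merged. Of the 6665 tested genes at or above the lowest member, 27 CPM, 18.7% had none, so the members' share lay under that of all genes and above that of the genes at this level. A peak was called in 8 members in A549 replicate 1 (43.8% of all tested genes had one there), in 11 in A549 replicate 2 (30.6%), in 25 in A549/DDP replicate 1 (40.7%) and in 12 in A549/DDP replicate 2 (22.2%). As shares of the 36 these counts are 22.2%, 30.6%, 69.4% and 33.3%. Of the 6665 genes at or above 27 CPM, 60.1%, 48.1%, 66.8% and 37.9% had a peak in the same lists. The share of members was under these shares in both A549 lists and in A549/DDP replicate 2, and above in A549/DDP replicate 1.

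Both A549 lists had a peak in 6 members, PSMB5, PSMD3, PSMD4, PSMD7, PSMD8 and PSME1, or 16.7% of the 36, beside 27.1% of all tested genes and 42.6% of those at or above 27 CPM. Both A549/DDP lists had one in 10 members, PSMA1, PSMB3, PSMB4, PSMD4, PSMD7, PSMD8, PSME1, PSME2, PSME3 and POMP, or 27.8%, beside 19.5% and 34.5%. The share of members in both A549/DDP lists was thus above that of all genes and under that of the genes at this level. A peak in both A549/DDP lists and neither A549 list was found in 4 members, PSMA1, PSMB3, PSME3 and POMP, or 11.1%, beside 1.98% and 3.6%. The opposite pattern was found in 0 members, beside 4.63% and 4.29%. With 2 lists a line and no read counts in them, a difference between lines in called peaks was not tested. A549/DDP replicate 1 carried most of the member peaks, 100 against 27 and 24 in the A549 lists and 33 in the other A549/DDP list. That list is also the longest, with 27244 peaks, but A549 replicate 1 is close to it with 26320. A549 replicate 2 has 14576 and A549/DDP replicate 2 has 10661. Peaks with p at or below 1e-05 were in 1 and 4 members in A549 replicates 1 and 2, beside 23.4% and 11.2% of all tested genes. In A549/DDP replicates 1 and 2 they were in 16 and 5, beside 23.8% and 10.8%. Cut to 10661 peaks each by p-value, the 4 lists held a peak in 1, 6, 9 and 12 members, in the order A549 replicates 1 and 2 and A549/DDP replicates 1 and 2, beside 18.2%, 24.0%, 16.6% and 22.2% of all tested genes.

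**Figure D5:**
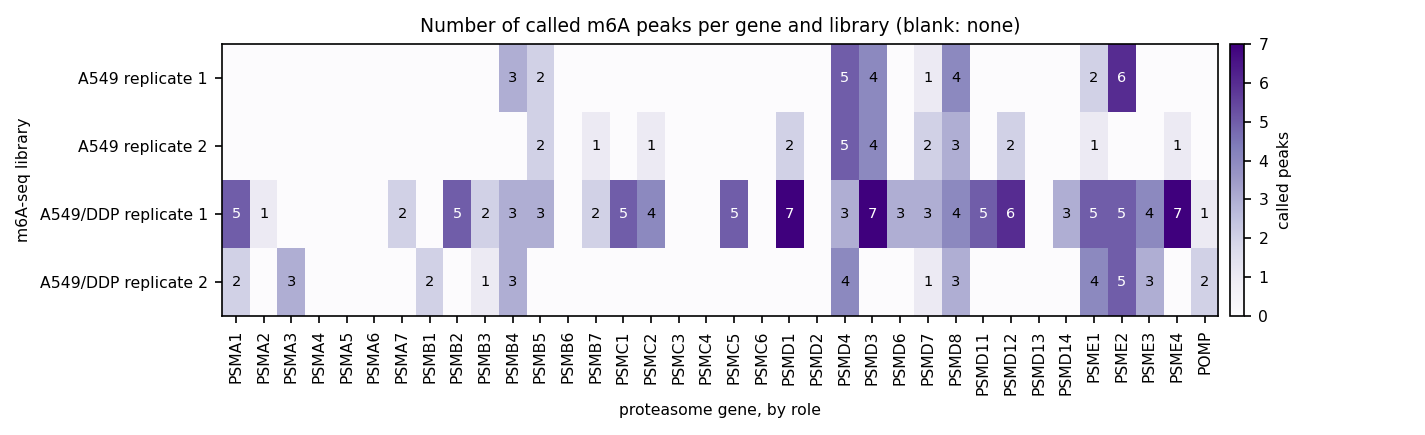
Number of called m6A peaks in each of the 36 proteasome genes (x axis, by role) in each of the 4 m6A-seq libraries (y axis), written in the cells and shown as shades from 0 to 7. A549/DDP replicate 1 has peaks in 25 genes, and PSMD4, PSMD7, PSMD8 and PSME1 have peaks in all 4 libraries.

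Only PSMD4, PSMD7, PSMD8 and PSME1 had a peak in all 4 lists, 4 of 36 or 11.1%, beside 13.9% of all tested genes and 24.9% of those at or above 27 CPM. Of these, 3 belong to the cap and 1 to an activator. PSMD4 had 5, 5, 3 and 4 peaks in the order above, covering 946, 748, 399 and 747 exon bases of a mean transcript length of 977 bases. PSMD8 had 4, 3, 4 and 3 peaks covering 694 to 844 bases. PSMD7 had 1, 2, 3 and 1 peaks covering 399 to 550 bases. PSME1 had 2 and 1 peaks in A549 and 5 and 4 in A549/DDP, covering 249 and 150 bases against 994 and 598.

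Peaks of the 36 genes were joined into 108 regions where their exon blocks shared a base on the same strand. Of these, 66 were in 1 list, 57 of them in A549/DDP replicate 1 alone, and 7 were in all 4 lists. Both A549/DDP lists and neither A549 list held 10 regions, and the opposite was found for 1 region, in PSMD4. Shares of regions over all genes were not computed, and a difference between lines was not tested. Coordinates of the 7 regions in all 4 lists follow. In coordinates of hg38, PSMD7 had 1 such region, chr16:74305342-74306188, which ends 100 bases before the 3′ end of the RefSeq gene. PSMD8 had 3, and that from chr19:38382778-38383824 reaches the 3′ end of the gene. PSMD4 had 2 (chr1:151265456-151266197 and chr1:151266396-151266674), and PSME1 had 1, chr14:24136207-24136961, which begins 13 bases after the 5′ end of the gene. Over all 108 regions, 17 lay within 500 bases of the 3′ end and 20 began within 500 bases of the 5′ start. A region spans introns where its blocks lie in several exons.

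Of the genes called in the input RNA, PSMB5 had 2 peaks in each A549 list and 3 in A549/DDP replicate 1, with none in replicate 2. The region shared by these 3 lists, chr14:23025905-23026346, lies 54 bases from the 3′ end of the gene. PSMD12 had 2 peaks in A549 replicate 2 and 6 in A549/DDP replicate 1, and PSMD14 had 3 in A549/DDP replicate 1 alone. Thus PSMD4 was the only called gene with a peak in every library, so it had peaks in both lines although its RNA was higher in A549/DDP. Its region chr1:151263950-151264852 was in both A549 lists and in neither A549/DDP list.

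Among activators, PSME2 had 6 peaks in A549 replicate 1, none in A549 replicate 2, and 5 in each A549/DDP library. PSME3 had none in A549 and 4 and 3 in A549/DDP. PSME4 had 1 peak in A549 replicate 2 and 7 in A549/DDP replicate 1. POMP had 1 peak of 543 bases and 2 peaks of 347 bases in the A549/DDP libraries. In the core, PSMB4 had 3 peaks of 640 bases in all in A549 replicate 1 and in both A549/DDP libraries, with none in A549 replicate 2. PSMA1 had 5 and 2 peaks and PSMB3 2 and 1 in A549/DDP, while PSMA3 (3 peaks) and PSMB1 (2 peaks) were marked in A549/DDP replicate 2 alone.

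In A549/DDP replicate 1 alone, peaks were called in PSMA2, PSMA7, PSMB2, PSMC1, PSMC5, PSMD6, PSMD11 and PSMD14, with 1 to 5 a gene. PSMB7, PSMC2 and PSMD1 had 1 or 2 peaks in A549 replicate 2 and 2, 4 and 7 in A549/DDP replicate 1. PSMD3 had 4 peaks in each A549 list and 7 in A549/DDP replicate 1. In that library 20 members had at least 3 peaks, and in 6 of these all peaks had 1 p-value, so the number of peaks there is not a number of separately tested sites. Peak bases were set against the mean transcript length, a ratio that reached 149.1% for PSME2 in that library. Its median there was 48.5% over members with a peak and 50.3% over all tested genes with a peak. The same medians were 50% beside 48% in A549 replicate 1 and 25.6% beside 35.8% in A549 replicate 2. In A549/DDP replicate 2 they were 46.8% beside 33.3%.

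Of the immunoproteasome genes, PSMB8 had 1 peak in A549 replicate 1, PSMB9 had none, and PSMB10 had 2 peaks in replicate 1 of each line. Of the upstream factors, NFE2L1 and MAFK had peaks in all 4 lists, as had 13.9% of all tested genes and 24.9% of those at or above 27 CPM. NFE2L2 had none in A549 replicate 1, 3 in A549 replicate 2, and 4 and 6 in A549/DDP. MAFF had 5 and 4 peaks in A549 and none in A549/DDP, where its RNA was at most 2.47 CPM. VCP and UBA1, the pathway genes that rose, had no peak in any list, as was so for 42.9% of all tested genes and 18.7% of those at or above 27 CPM.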

How the data were processed

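Input RNA-seq and m6A-seq libraries of A549 and A549/DDP cells were analysed, grouped and numbered by their labels, also where the A549 m6A-seq file names give the numbers the other way round. The libraries were strand-specific. Each input library has a gene table that the authors deposited, made with RSEM, and the submitters' processing notes also name STAR, bedtools and the build hg38, with no versions. The deposited expected counts are estimated counts without normalization, and the deposited TPM and FPKM carry the authors' correction for length and depth. For each m6A-seq library the authors deposited 1 list of called peaks with exon blocks, gene and a p-value per peak. The peak caller is not given in the sources used here, nor is it said whether the p-value is adjusted, and the lists hold no counts, so the depth of these libraries is unknown.

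Expected counts were rounded, passed through filterByExpr, TMM-scaled and tested in edgeR 4.0.16 (quasi-likelihood, R 4.3.3), with Benjamini-Hochberg adjustment over 16406 genes. The SE is the log2 fold change over the square root of F, an approximation. The common biological coefficient of variation was 0.656. The fit was tested on simulated data. Alternatives were DESeq2 1.42.0, limma 3.58.1 on log2(TPM + 1), log2(TPM + 0.1) and log2(FPKM + 1) with a mean of at least 1, other scalings and filters, a replicate block, the second A549 pair, and leaving out each library. Lists of equal size were ranked by p-value, with ties in order of position. Peaks were joined where blocks shared at least 1 base, and distances to gene ends use RefSeq genes of GRCh38.p14. Plots were drawn with matplotlib 3.10.9. Reads of pseudogene copies can be split by the counting.

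Named with values were all called members, the highest and lowest fold change in each role, the 3 highest and 3 lowest mean TPM, every member with a peak, and in each pathway list the called genes and that with the largest change. NFE2L1, MAFG, ADRM1, SEM1, PSMB10 and further members were named after their values were seen. The 36 members and the lists were chosen with earlier results of these data known. Some genes of the pathway lists are counted but not reported here by name.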

Additional observations from a re-analysis of the deposited data

Results flagged for a closer look

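The second pair of A549 inputs, which enters the comparisons only as an alternative, held signal from the proteasome genes. In the library with fewer, 33 of the 36 genes had more than 3 counts, the limit that a count of 0 allows. Their summed level was 555.8 and 503.5 TPM, against 6004.7 to 6720.1 TPM in the 4 libraries used, and 11 and 10 of the genes had at most 10 counts. With 2 libraries a group, no group was large enough to look for a single library that stands apart.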

How the results depend on the processing

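The number of proteasome genes called moved with the test. Shares over all tested genes, higher and lower, stand in brackets. Against 2 higher and 2 lower in edgeR (6.85% and 8.00%), DESeq2 gave 6 and 7 (11.7% and 12.9%). No filter beyond 1 count gave 6 and 6 (8.06% and 9.54%), and at least 10 counts in every library 6 and 6 (13.6% and 14.5%). Limma on log2(TPM + 1) gave 0 and 2 (4.32% and 5.37%). On log2(TPM + 0.1) it gave 0 and 1 (3.31% and 4.33%), and on log2(FPKM + 1) 0 and 1 (5.76% and 5.60%). Upper-quartile scaling gave 2 and 2 (7.76% and 7.69%), and total-count scaling 3 and 2 (7.54% and 7.65%). The second A549 pair gave 6 and 9 (17.2% and 10.0%) and both pairs together 0 and 0 (2.03% and 2.07%). Leaving out 1 library gave 0 to 5 higher and 0 to 9 lower, with the lone library assumed to vary like the other line. With a replicate block 6 were higher and 6 lower (9.95% and 11.6%). The numbers pair nothing that the labels name, and deviations of same-numbered inputs correlated at 0.0259, so the block is given only here. The blocked fit kept all 4 called genes, and of the 32 others 26 kept their sign in all 9 alternatives with the same 4 libraries.

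For the other pathway genes (2 higher and 6 lower), DESeq2 gave 10 lower (12.9% of all genes) and no filter beyond 1 count 10 lower (9.54%). The second pair gave 8 higher (17.2%), and both pairs 0 higher and 3 lower (2.03% and 2.07%). Against the second pair, ECPAS and MAFK turned to 0.32 and 0.34 on the log2 scale, and in that fit the median of all genes was 0.80. Leaving out 1 library gave 2 to 3 higher and 4 to 9 lower.

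Peaks in both A549 lists (6 members) became 1 with p at or below 1e-05, 1 with lists of equal size and 13 with a peak in either list. Peaks in both A549/DDP lists (10 members) became 2, 6 and 27. Shares of all genes in both lists at these cuts were not computed. In single lists, 23.4% and 11.2% of all tested genes (A549) and 23.8% and 10.8% (A549/DDP) had a peak with p at or below 1e-05. A single A549 list gave 8 to 11 and a single A549/DDP list 12 to 25. The depth behind peaks is unknown, so an uncalled peak does not show that m6A is absent. The causes of these changes were not tested.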

Other observations

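PSMB8 and PSMB9 lie next to each other on chromosome 6 (32840717 to 32844679 and 32854192 to 32859851 in GRCh38.p14), with TAP1 between them and TAP2 beside them. TAP1 and TAP2 form the transporter that carries peptides made by the proteasome to class I molecules, and were chosen here after their values were seen. TAP1 was at 50.6 and 66 CPM in A549 and 20.8 and 15.9 CPM in A549/DDP, and fell by 1.67 on the log2 scale (SE 0.28, edgeR adjusted p = 0.0159). TAP2 was at 44.2 and 38.4 CPM against 19.2 and 36.4 CPM (-0.57, SE 0.36, edgeR adjusted p = 0.341). So of the 4 adjoining genes, PSMB8 and TAP1 passed the test, beside 8.00% of all tested genes called lower. In PSMB9 and TAP2 both A549/DDP libraries also lay under both A549 libraries, as in 32.7% of all tested genes. A pattern of this locus was not tested.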
